A study of Mus musculus with 24 samples.

Results

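GC-2 cells are a mouse line to which the study ascribes features of spermatocytes. They were compared with whole testis on 6 microarrays, 3 of each, out of 24 arrays from 8 groups. The 6 arrays were chosen by their group labels, and each of the 60804 transcript probes on the array was used. GC-2 cells were grown in DMEM with fetal bovine serum and collected at early passages. The testes came from 8-week-old male ICR mice. No label names a treatment or an engineered allele in either group. The line GC-1, placed between the type B spermatogonium and the primary spermatocyte, and F9, an embryonal carcinoma line, were cultured in the same medium and served as a reference for GC-2. The design calls the 3 arrays of each group biological replicates, but the sources used here do not say whether the GC-2 arrays came from separate cultures of the line, so that their spread may be partly technical.

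Total RNA was labelled with Cy3 and hybridised to an array with 60-base probes for long noncoding RNAs (lncRNAs) and mRNAs. A level is the log2 processed intensity of a probe minus the 75th percentile of its array, so that 0 stands for an intensity between 107 and 146 on the GC-2 arrays and between 305 and 384 on the testis arrays. A difference is the mean level in GC-2 minus the mean level in testis. A probe is called where this difference is at least 5-fold and limma's adjusted p is 0.05 or less, and it is detected on an array where its signal was flagged well above background. Between 26120 and 28655 probes were detected on a GC-2 array and between 34999 and 37393 on a testis array. Replicate 1 of both groups lay on the same slide, and the other arrays of GC-2 and of testis lay on a slide for each group. Names could be given to 3478 probes (5.72%) through the study's supplementary tables. Every probe named as an mRNA was on the study's list of testis-specific transcripts seen in at least 1 of the lines, a choice made on these arrays.

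Spermatogenesis takes a spermatogonium through mitotic divisions, meiosis as a spermatocyte and the shaping of the spermatid into a sperm. Germ cells at these stages use genes that few other cells use, among them those for PIWI proteins and the small RNAs they bind, which silence transposons, and those for the acrosome and the flagellum. Whole testis also holds Sertoli cells, Leydig cells that make testosterone, peritubular cells, vessels and blood, so that in such bulk tissue fewer cells of a type and less RNA per cell cannot be told apart. LncRNAs are transcripts without a long open reading frame, and many of them are found in testis.

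Of all 60804 probes, lower levels in GC-2 than in testis were called for 7548 (12.4%) and higher levels for 10094 (16.6%). The share of lower calls depended on the scaling. It was 42.8% of the calls here and 73.4% (10750 lower, 3890 higher) where the 75th percentile was taken over the probes detected on all 6 arrays. The median difference of all probes was 1.35, and it ran from 0.19 to 1.54 over 5 scalings and background corrections. Under all 5 of these, 3715 probes (6.11%) were called lower and 2660 (4.37%) higher. A difference near 1.35 is therefore that of a middling probe, and the counts under all 5 are given beside those of the gene groups.

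**Figure D1:**
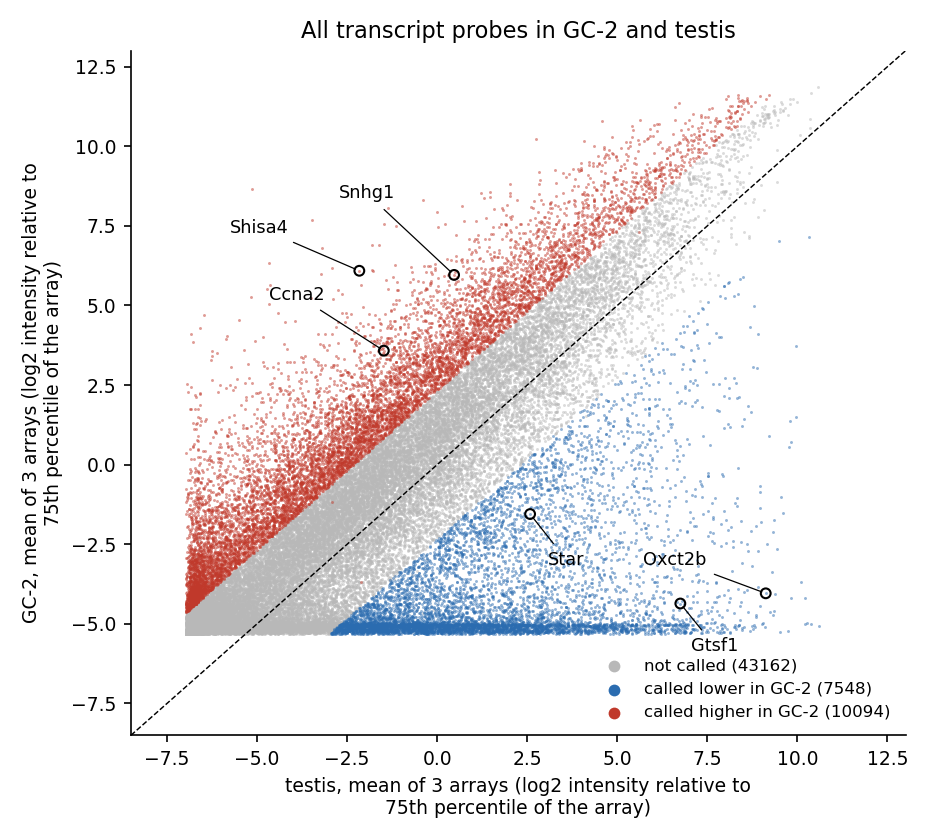
Each point is 1 of the 60804 transcript probes, with its mean level over the 3 testis arrays on the x axis and over the 3 GC-2 arrays on the y axis, both as log2 intensity relative to the 75th percentile of the array. The 7548 probes called lower in GC-2 are blue and the 10094 called higher are red, the dashed line marks equal levels, and many of the blue points lie along the lower edge, where GC-2 has no signal above background.

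The 2 directions differed in detection. On all 3 testis arrays 33639 probes (55.3%) were detected and on all 3 GC-2 arrays 24868 (40.9%), with 22701 (37.3%) on all arrays of both. A set of 8186 probes (13.5%) was detected on all testis arrays and on no GC-2 array, of which 5479 were called lower. The reverse set, on all GC-2 arrays and no testis array, held 965 probes (1.59%), of which 959 were called higher. The size of the reverse set depended on how detection was set, since the lowest detected level lay between -3.39 and -2.69 on the GC-2 arrays and between -4.87 and -4.44 on the testis arrays. With a common threshold of -2.69 on all 6 arrays it held 3979 probes against 5700 in the other direction. With the software's laxer flag, which asks for a positive and significant signal, it held 487 against 5571. The 19272 probes detected on no array of either group had a median difference of 1.58, close to that of all probes, and 717 of them were called higher, none lower. A higher call without detection in GC-2 thus gives no level, and 8015 of the higher calls (13.2% of all probes) were detected on all 3 GC-2 arrays.

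The GC-2 arrays resembled each other and the other lines more than testis. Across probes the correlation of their levels was between 0.972 and 0.988 among themselves, 0.944 to 0.954 with GC-1, 0.904 to 0.916 with F9 and 0.700 to 0.713 with testis. Heart (0.862 to 0.873), kidney (0.853 to 0.860), brain (0.828 to 0.836) and liver (0.774 to 0.811) of the same series lay between. Probes are not independent, and these values are descriptions of the arrays.

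Star, which encodes the protein that brings cholesterol into mitochondria for steroid synthesis and marks Leydig cells, was lower in GC-2 than in testis. Its gene lies at chr8:25808474-25815982 (GRCm38). The 3 testis arrays read 2.19, 2.83 and 2.71. The GC-2 arrays read 0.06 for replicate 1, -2.46 and -2.25. The groups do not overlap, as on 20.8% of all probes in this direction, and replicate 1 of GC-2 lay 2.41 above the mean of the other GC-2 arrays. The difference was -4.13 (SE 0.64, 95% interval -5.61 to -2.64, limma adjusted p 0.000742), or 17.5-fold. Without GC-2 replicate 1 it was -4.93, and on the slide that holds replicate 1 of both groups, where it has no test, it was -2.13. Star was detected on all 3 GC-2 arrays. Its level there did not pass the test against GC-1 (-2.23 ± 0.28, SD, n = 3, difference 0.68, limma adjusted p 0.711) or against F9 (-2.31 ± 1.12, detected on 1 array, difference 0.76, limma adjusted p 0.357). The other 5 Leydig genes of the marker list, and every marker of spermatocytes, Sertoli cells, peritubular cells, fibroblasts and macrophages, were not among the probes that could be named, so that the spermatocyte label of GC-2 could not be checked against its own markers. The 1 named spermatogonium marker and the 2 named spermatid markers are among the genes below. Of the 16 germ line, meiosis and PIWI probes below, 10 were detected on no GC-2 array.

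Genes of sperm structure were far lower in GC-2. Of 14 genes for spermatid and sperm proteins, 12 were called lower, all of them also under all 5 scalings and corrections, none was called higher and 2 were not called. On all 3 GC-2 arrays 9 of the 14 were detected, and 2 on none. Of the 260 named mRNAs 175 were detected on all 3 GC-2 arrays and 57 on none. A named mRNA had to be seen in at least 1 line, so that the choice of members favours detection. The median difference of the 14 was -6.56, against 1.35 for all probes and -1.95 for the 260 named mRNAs, of which 45.4% were called lower. Since the study had chosen these mRNAs for being specific to testis among tissues, the direction against a line is not independent evidence.

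Oxct2b, which encodes a testis form of a ketone body enzyme, read 8.91, 9.19 and 9.24 on the testis arrays. The GC-2 arrays read -5.54, -1.62 and -4.97, with detection on 1 of 3, the one at -1.62. The groups do not overlap (limma adjusted p 8.95e-06), and the fitted difference of -13.16 includes GC-2 values that are not above background, so that it is no measured fold. Qrich2, a gene of the sperm flagellum, read 8.57, 8.45 and 8.31 in testis and was not well above background on any GC-2 array, so that testis was at least 2732-fold higher. Dnah8, a dynein heavy chain that drives the flagellum, had a mean of 5.74 in testis and was detected on 1 GC-2 array. Most of the group had a signal in GC-2, as did most of the named mRNAs. Acr, the acrosomal protease acrosin and a spermatid marker, read -2.74, -2.34 and -2.48 in GC-2, detected on all 3, and 2.64, 2.81 and 2.83 in testis, a difference of -5.28 (SE 0.22, limma adjusted p 5.91e-07). Those GC-2 levels lie not far above the lowest detected levels of the arrays, -3.39 to -2.69. Actl7a, an actin-like protein of the acrosome and the other spermatid marker, read -0.28, -1.57 and -1.28 in GC-2 and 8.33, 8.28 and 8.36 in testis, a difference of -9.37. Pbp2, a phosphatidylethanolamine-binding protein, differed by -4.73 from testis and was detected on all 3 GC-2 arrays and on no array of GC-1 or F9. It was called higher than in both of those lines, with fitted differences that are no measured folds. Spata6, a gene of the sperm connecting piece, and Ppp1cc, a phosphatase with a testis form, were the uncalled members, at -1.42 and -0.24. Among the other mRNAs of lowest difference, 2410141K09Rik (testis at least 971-fold higher), 1700022P22Rik (at least 581-fold), Cst13, a cystatin (at least 583-fold), and Ctag2 (at least 427-fold) were on no GC-2 array, and Gm14501 (-10.49) was detected on all 3.

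Genes of the germ line, of meiosis and of the PIWI pathway were lower in GC-2 as well. Of 16 probes for 15 genes, 14 were called lower (7 under all 5 scalings and corrections), none higher and 2 not called, with a median difference of -4.87. Among all probes 12.4% and among the 260 named mRNAs 45.4% were called lower. The direction is again not independent evidence, since these mRNAs were chosen as specific to testis. A set of 10 probes was detected on no GC-2 array and 3 on all 3. Gtsf1, a partner of PIWI proteins, read 7.01, 6.48 and 6.75 in testis and -3.17, -4.85 and -5.04 in GC-2, where replicate 1 alone was detected. Rnf17, a tudor-domain protein of germ cell granules, was at least 111-fold higher in testis, with a mean of 3.80. Piwil2, which encodes a PIWI protein, read 2.37, 1.69 and 1.61 in testis and was detected on no GC-2 array, at least 29.4-fold apart. Tcfl5, a transcription factor of spermatocytes, was at least 80.4-fold higher in testis. Stra8, the retinoic acid target that germ cells need for meiosis and the named spermatogonium marker, was at least 8.49-fold higher in testis, at a mean level of 0.10, and Hormad2, which binds unsynapsed chromosome axes, at least 7.08-fold. Gpat2 was detected on GC-2 replicate 2 alone, at -0.85 beside -5.45 and -5.08 on the others.

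Zcwpw1 and Trip13 were the uncalled members, and Ddx43 differed between GC-2 and GC-1. Ddx43, a DEAD-box helicase, read -1.26, -1.33 and -0.88 in GC-2 and 2.65, 2.78 and 2.92 in testis, a called difference of -3.94, yet it was called higher than in GC-1 by 2.50 on the log2 scale. Zcwpw1, a histone reader at meiotic break sites, differed by -1.44 and was not called. Trip13, an ATPase that acts on meiotic chromosomes and in the mitotic checkpoint, read 0.82, -0.15 and -0.16 in GC-2 and -2.34, -1.78 and -1.83 in testis. Its difference of 2.15 fell short of 5-fold in the comparison and was 1.00 where the scaling used only detected probes.

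**Figure D2:**
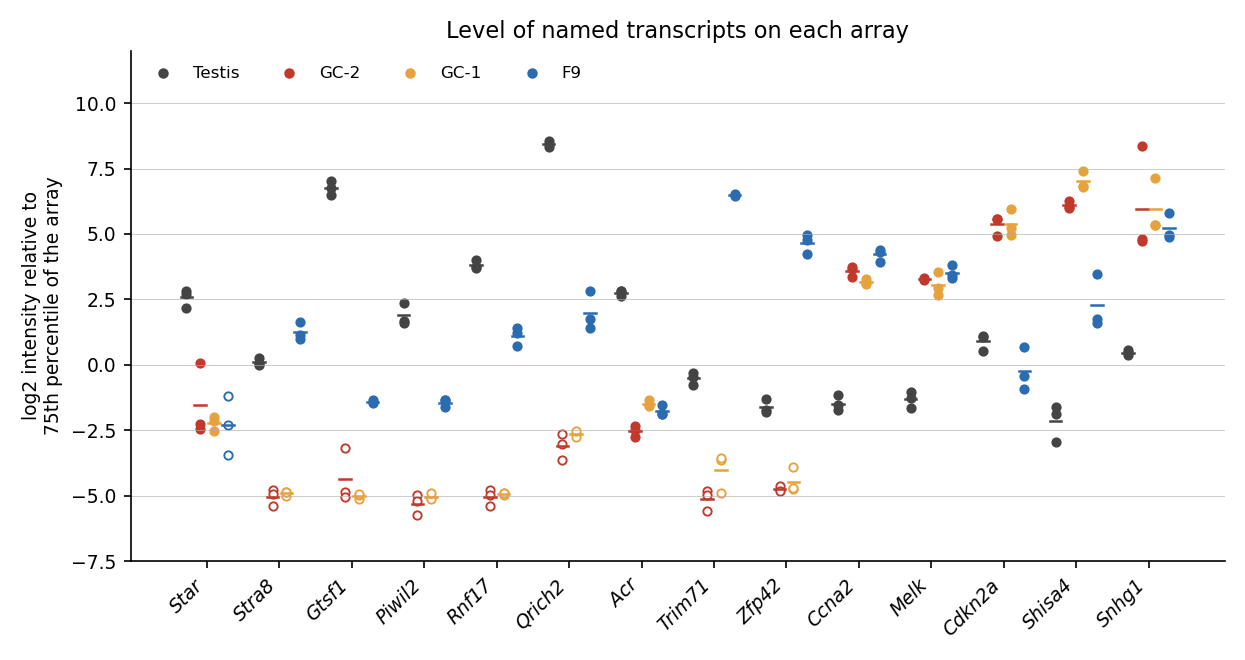
Levels of 14 named transcripts (log2 intensity relative to the 75th percentile of the array, y axis) on the 3 arrays each of testis, GC-2, GC-1 and F9, with short lines at the means. Filled points belong to groups that detected the probe on all 3 arrays and open points to groups that did not. The GC-2 points of the germ cell genes from Stra8 to Qrich2 lie near background while those of F9 do not, and for Ccna2 and Melk all lines lie above testis.

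The same germ cell probes were compared between lines. All 16 were detected on all F9 arrays and 2 on all GC-1 arrays. Against F9, where 3.77% of all probes were called lower and 3.18% higher in GC-2, 14 of the 16 were called lower in GC-2, with a median difference of -4.17. Against GC-1, where 2.09% of all probes were called lower and 1.24% higher, 1 was called in each direction, Tex14 of the intercellular bridges lower on 1 of its 2 probes and Ddx43 higher. A named mRNA that is absent in GC-2 and GC-1 had to be seen in F9 to be named, so that the choice of members favours F9 in the first of these counts.

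Genes of pluripotent cells and of the early embryo were also low in GC-2. Of 13 probes for 11 genes, 9 were called lower in GC-2 than in testis (3 under all 5 scalings and corrections), none higher and 4 not called. The shares called lower were 12.4% of all probes and 45.4% of the named mRNAs. These genes too were named as specific to testis, so that their direction is not independent evidence. The median difference was -3.77, and 9 of the 13 were detected on no GC-2 array. Zic5, a zinc finger factor of neural development, was at least 34.7-fold higher in testis. For Fbxo15, a target of Oct4 and Sox2 in embryonic stem cells, testis was at least 25.1-fold higher, and for Nr6a1, a nuclear receptor of germ cells that represses Oct4, at least 18.7-fold. Zfp42 (Rex1), a marker of embryonic stem cells, read -1.71, -1.31 and -1.80 in testis, was on no GC-2 array and had a mean of 4.65 in F9. The lowest detected levels of the GC-2 arrays, -3.39 to -2.69, lie not far below its testis levels, so that its lower call is no measured fold. Trim71, an RNA-binding regulator of embryonic development, read 6.49, 6.45 and 6.54 in F9, -0.33, -0.78 and -0.45 in testis and was on no GC-2 array. Of the 13 probes, 12 were called lower in GC-2 than in F9, the same choice of members applying.

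Gsc, the homeobox gene goosecoid of the embryonic organizer, had the highest difference of the pluripotency and early embryo probes. It read 1.93, 2.13 and 2.05 in GC-2 and 0.16, 0.42 and 0.47 in testis, a difference of 1.69 (SE 0.21) that was under 5-fold and not called. The median of all probes was 1.35, from 0.19 to 1.54 over 5 scalings and corrections, so that against testis Gsc was near a middling probe. It was on no GC-1 array, so that the fitted difference of 7.21 from GC-1 (limma adjusted p 2.94e-09) is no measured fold, and it lay 3.37 above F9, where it was detected (SE 0.19, limma adjusted p 9.98e-08). Its GC-2 values lie above every array of the other 3 groups.

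Genes of cell division were not moved as a block. Of 23 genes of the spindle, kinetochore and cytokinesis, 8 were called higher in GC-2, 2 lower and 13 not, with a median difference of 1.22, close to the 1.35 of all probes. The share called higher, against 16.6% of all probes, came down to 1 gene under all 5 scalings and corrections, with both lower calls remaining. Of 12 genes of chromosome structure and chromatin 3 were called higher and none lower, with none left under all 5 and a median of 0.52. Of 9 kinases and regulators of the cell cycle, 3 were called higher and 2 lower, all of them also under all 5. Of 14 probes for DNA replication and repair, 3 were called higher, none under all 5, with a median of 1.52. All probes are not the only reference for these genes. The 260 named mRNAs, chosen as specific to testis, had a median of -1.95, and 6.92% of them were called higher. The medians of the cell division groups lay above that value.

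The 4 mRNAs called higher under all 5 were Ccna2, Sgol1, Melk and Cdkn2a. Ccna2 encodes cyclin A2, which drives S phase and entry into mitosis. It read 3.34, 3.66 and 3.74 in GC-2 and -1.74, -1.55 and -1.16 in testis, a difference of 5.06 (SE 0.25, 95% interval 4.48 to 5.64, limma adjusted p 1.42e-06), or 33.4-fold. Sgol1 (now Sgo1, shugoshin 1), which guards centromeric cohesion, read 3.68, 3.09 and 3.27 in GC-2 and -1.49, -1.77 and -1.47 in testis, 30.4-fold apart. Melk, a kinase of dividing cells, read 3.29, 3.30 and 3.26 in GC-2 and -1.03, -1.64 and -1.25 in testis, 24.1-fold apart. None of these 3 was called against GC-1 or F9. Cdkn2a, which encodes the cell cycle inhibitors p16INK4a and p19ARF, read 4.93, 5.57 and 5.59 in GC-2 and 0.52, 1.1 and 1.06 in testis, a difference of 4.47 (22.2-fold). Its mean in GC-1 was 5.39, and in F9 it was -0.22, a called difference of 5.59 from GC-2.

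The next in order were called under the 75th percentile over all probes but not under each alternative. They were Clhc1 (3.18), Top2a, the topoisomerase that untangles chromosomes (3.17), Parpbp, an inhibitor of recombination (3.14), and Eme1, a subunit of a junction-cutting nuclease (3.05). The mitotic kinesins Kif11 (2.87) and Kif23 (2.84) and Racgap1, the partner of Kif23 at the midzone (2.86), had differences of similar size. None of these genes was called against GC-1 or F9. Opposite in direction, Cdc14a, a phosphatase of the cell cycle and of sperm and hair cells, read -2.48, -1.95 and -1.63 in GC-2 and 2.16, 2.44 and 2.58 in testis (difference -4.41, SE 0.28). Skp2, the F-box protein that marks cell cycle inhibitors for degradation, read -1.12, -0.72 and -0.56 in GC-2 and 3.26, 3.33 and 3.47 in testis (difference -4.15, SE 0.23). The centrosomal proteins Cep72 (-4.22) and Wdr62 (-3.64) were also lower. Of 5 nuclear pore genes, Nup210l (-6.71) and Nup62cl (at least 13-fold higher in testis) were called lower, also under all 5, and Nup98, Nup205 and Nup214, which most cells use, were not called, at -0.47, -0.45 and -0.25. Lower calls made up 12.4% of all probes and 45.4% of the 260 named mRNAs.

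**Figure D3:**
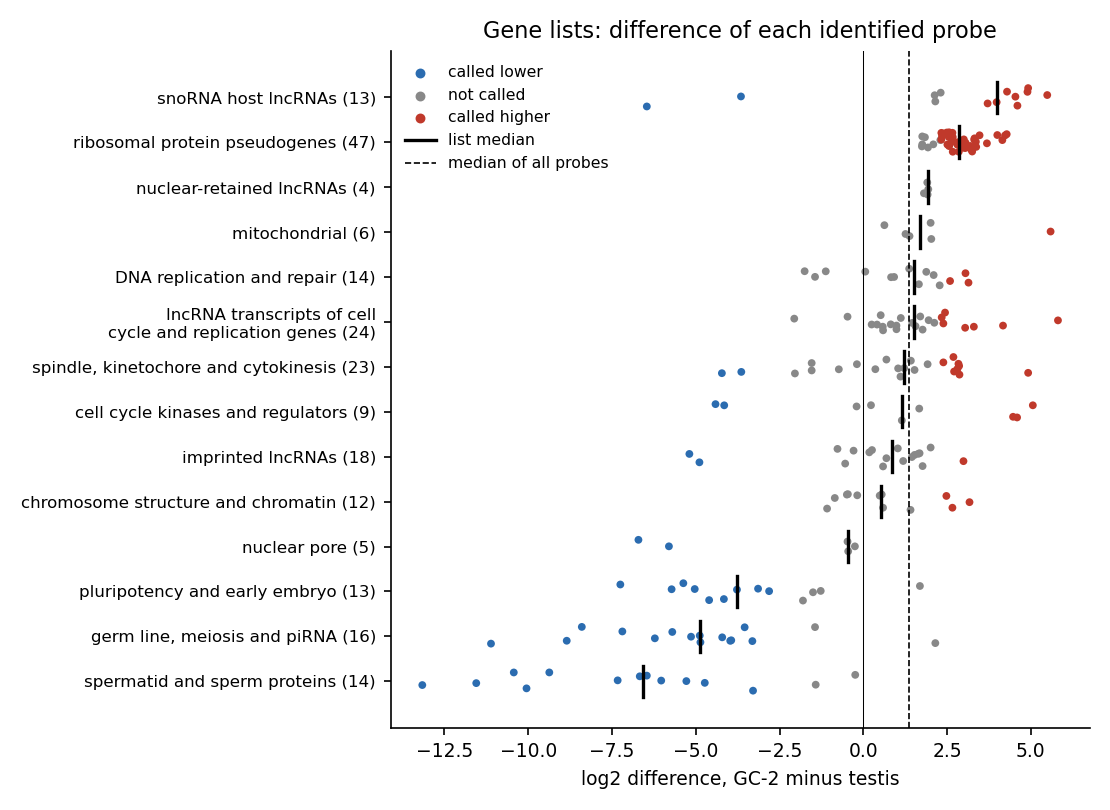
The log2 difference, GC-2 minus testis (x axis), of each named probe in 14 gene groups (rows, with the number of probes in brackets). Blue points were called lower, red points higher and grey points not called, thick lines are the medians of the groups and the dashed line is the median of all probes, 1.35. Sperm genes lie left of it, as do germ line and pluripotency genes apart from Trip13 (2.15) and Gsc (1.69). The medians of the cell division groups lie between 0.52 and 1.52.

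LncRNA transcripts of cell cycle and replication genes had a median near that of the whole array. Of 24 probes, 7 were called higher (2 under all 5), none lower and 17 not, with a median of 1.51. Higher calls made up 16.6% of all probes, 4.37% under all 5, and 39.3% of the lncRNAs named in the main tables. The 2 of the 24 called under all 5 were a transcript at the cohesin gene Smc1a (ENSMUST00000145518, difference 5.81, 55.9-fold) and 1 at the kinetochore gene Ska2 (ENSMUST00000142263, difference 4.17, 18-fold). The Smc1a transcript read 5.20, 5.05 and 4.90 in GC-2 and -0.57, -0.85 and -0.84 in testis. For 8 genes both an mRNA and an lncRNA probe were named. In 7 of the 8 pairs the difference had the same sign on both probes, as for Dlgap5 (2.71 and 2.39, both called), Diap3 (1.11 and 0.82), Pbk (0.23 and 0.41), Mum1l1 (0.70 and 1.05), Cep110 (-0.59 and -0.47), Ppp4r1 (-0.79 and -0.66) and Zfp951 (-0.19 and -0.21). For Diap3, Pbk, Mum1l1, Zfp951 and the Cep110 lncRNA the sign changed under another scaling or correction. The exception was Dscc1, a subunit of the clamp loader for cohesion, with 1.37 for the mRNA and -2.06 for the lncRNA ENSMUST00000143523. The mRNA read 4.92, 3.37 and 3.36 in GC-2 and 2.86, 2.26 and 2.43 in testis. The lncRNA read 1.15, 0.23 and 0.17 in GC-2 and 2.47, 2.69 and 2.57 in testis. Neither probe was called and the groups do not overlap on either, which holds for 61.1% of all probes with GC-2 above testis and 20.8% with GC-2 below. The signs held under each of the 5 scalings and corrections.

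Of the 2057 lncRNAs named in the 3 main tables, 809 were called higher (39.3%) and 167 lower (8.12%), with a median difference of 1.84. Of all probes 16.6% were called higher and 12.4% lower, with a median of 1.35. Of the 24868 probes detected on all 3 GC-2 arrays 8015 were called higher, with a median of 1.54. Under all 5 scalings and corrections 301 of the 2057 were called higher and 85 lower, against 4.37% and 6.11% of all probes. The lists that name most of them are those for brain and F9, held here from their brightest entries on, and 1879 of the 2057 were detected on all GC-2 arrays, so that the choice favours lncRNAs bright in F9 and the shares do not describe lncRNAs as a class. A further 335 lncRNAs, named only as testis-specific, were called lower in 324 cases (96.7%), 222 of them under all 5, with a median of -7.56, 300 of them detected on no GC-2 array, as their choice implies. The lowest by fitted difference was 1700027A15Rik (NR_038002), with 8.04, 8.57 and 8.53 on the testis arrays, at least 2638-fold above GC-2. The others of the 8 lowest were Kcnmb4os1 (at least 1454-fold), AK017048 (at least 1427-fold), 4933432K03Rik (at least 1278-fold), an lncRNA named Svip (NR_027704, at least 1100-fold), Wbscr25 (at least 919-fold), 1700022A21Rik (at least 1583-fold) and an lncRNA at the sperm surface gene Adam5 (at least 885-fold), and none of the 8 was on any GC-2, GC-1 or F9 array.

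The classes of lncRNA differed in how often they were called higher. Among the named lncRNAs with a class, the share was 65.6% of 96 in introns on the sense strand, 58.0% of 193 in introns on the antisense strand, 46.2% of 1015 intergenic, 28.4% of 440 exonic sense, 27.1% of 48 bidirectional and 22.1% of 95 exonic antisense. Under all 5 scalings and corrections the counts were 22, 37, 178, 50, 6 and 5 in the same order. LncRNAs of the X chromosome were called higher in 109 of 187 cases (58.3%) and those of other chromosomes in 694 of 1700 (40.8%), with medians of 2.59 and 1.93 and 45 and 253 of the calls left under all 5. For comparison, 16.6% of all probes were called higher, as were 8015 of the 24868 probes detected on all 3 GC-2 arrays. No class was given for 170 of the 2057 lncRNAs, which are left out of the class shares. Of these 170, 82 were called lower and 6 higher, with a median of -2.14, against 167 lower calls among all 2057. The class and chromosome shares are counts over named probes, which are not independent, and the differences between classes were not tested.

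The lncRNA with the highest difference lay at Shisa4, a membrane protein gene, on chromosome 1. The transcript ENSMUST00000159918, exonic and on the same strand as Shisa4 (chr1:135371060-135373450, GRCm38), read 6.26, 6.02 and 6.01 in GC-2 and -2.95, -1.89 and -1.63 in testis, a difference of 8.25 (SE 0.36, limma adjusted p 7.9e-07). The second, AK181950 (uc029qtj.1, chr1:135371247-135371760), read 5.57, 4.99 and 5.04 in GC-2 and -3.0, -2.76 and -2.87 in testis, a difference of 8.07 (SE 0.24). The probes of both lie in windows of the Shisa4 locus that are 14 bases apart, and the table lists the Shisa4 transcript as able to bind the AK181950 probe, so that they are not separate findings. Both probe sequences are shown, in lower case, because both report the same locus.
Shisa4 ENSMUST00000159918: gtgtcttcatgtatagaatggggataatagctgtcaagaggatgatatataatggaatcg
AK181950 uc029qtj.1: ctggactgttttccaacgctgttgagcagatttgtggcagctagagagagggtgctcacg
Both transcripts were also high in GC-1 (7.01 and 6.21) and lower in F9 (2.27 and 2.05), where the difference from GC-2 was called (3.83 and 3.15).

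A further pair of lncRNAs in this order were detected on all GC-2 arrays and no testis array. The Gap43 transcript ENSMUST00000125187, at the gene of a neuronal growth cone protein, read 1.75, 0.62 and 0.60 in GC-2, at least 49.5-fold above testis. Its difference from F9, where it was higher still, was -4.17. The Homer3 transcript ENSMUST00000143528, at the gene of a synaptic scaffold, was at least 50.6-fold above testis. The others among the 10 highest, each called under all 5, were Tyms-ps, a pseudogene of thymidylate synthase (7.12), B930095G15Rik (7.07), Gm7809 (6.94), AK208069 (6.79), a transcript at the acyl-CoA thioesterase gene Acot9 (6.68) and Gm14042 (6.57). None of the 10 lay lower in GC-2 than in GC-1 by the call. Tyms-ps shares sequence with its parent gene, whose mRNA may also bind its probe.

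The lncRNA with the lowest difference in the main tables was Hba-ps4, a pseudogene of alpha-globin (ENSMUST00000128900, chr17:26286363-26287061, intergenic). It read 6.22, 5.82 and 5.72 in testis and was on no GC-2 array, at least 476-fold apart. It was detected on all 3 GC-1 arrays, at a mean of -1.15. Globin mRNA of blood in the tissue shares sequence with it, the table lists no other transcript for the probe, and whether other globin transcripts bound it was not tested. Its probe is given for that reason.
Hba-ps4 ENSMUST00000128900: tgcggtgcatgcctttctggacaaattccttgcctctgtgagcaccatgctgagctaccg
Among the 10 lowest, AK018904 (-8.64) and Gm6455 (-7.82) were still detected on all GC-2 arrays. The others were on no GC-2 array, with testis at least 81.8-fold higher for 4933438K21Rik, 66.7-fold for AK032666, 59.9-fold for Frs3os and 67.4-fold for a T cell receptor beta chain transcript. F9 detected 4933438K21Rik, AK032666, Frs3os, AK019859, AK015174 and AI838599 on all 3 arrays, and GC-2 was called lower than F9 for these 6.

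Host genes of small nucleolar RNAs (snoRNAs) carry snoRNAs in their introns, and their spliced RNA is held low by decay coupled to translation. On most of their probes, but not in every gene, GC-2 was called higher than testis. Of 13 probes for 5 genes, 8 were called higher, also under all 5, 2 lower, also under all 5, and 3 not called, with a median of 3.98. Of all probes 16.6% were called higher. Against testis, 9 of the 13 probes were called higher in GC-1 and 10 in F9, with 2 lower in each line. None was called between GC-2 and GC-1, and 1 was called higher in GC-2 than in F9. Most of the probes belong to a single gene, Gas5, so that they are not separate genes. GC-2 replicate 1 lay above the other GC-2 arrays on most of them. Snhg1 (NR_002896) read 8.36, 4.72 and 4.79 in GC-2 and 0.48, 0.56 and 0.36 in testis, a difference of 5.49 (SE 0.90, limma adjusted p 0.000883) that was 4.29 without replicate 1. Snhg6 read 6.42, 5.11 and 5.13 in GC-2 and 1.68, 1.94 and 1.90 in testis, a difference of 3.71. Dancr differed by 2.31, just under 5-fold. The Snhg3 transcript ENSMUST00000155816 was on no GC-2 array and at least 21.7-fold higher in testis.

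Gas5, a growth arrest transcript of chromosome 1 that hosts snoRNAs, had 9 probes, 6 called higher, 1 lower and 2 not. The called probes above testis ranged to 4.92. On all 9 probes replicate 1 of GC-2 lay above the mean of the other GC-2 arrays, by 0.90 to 3.09. The uncalled probes, uc007det.1 and ENSMUST00000161380, read 4.76 to 5.38 on GC-2 replicates 2 and 3 and 7.88 and 8.10 on replicate 1, with differences of 2.13 and 2.15. The probe of ENSMUST00000160429 read 9.86, 8.20 and 8.13 in GC-2 and 3.93, 4.25 and 4.22 in testis, a difference of 4.60. The 3 sequences are shown because they read nearby stretches of the same gene and gave different values. Capitals mark the 32 bases that the first and the second share.
Gas5 uc007det.1: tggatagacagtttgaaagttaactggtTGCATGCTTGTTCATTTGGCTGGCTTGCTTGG
Gas5 ENSMUST00000161380: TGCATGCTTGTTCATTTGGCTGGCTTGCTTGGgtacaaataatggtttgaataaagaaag
Gas5 ENSMUST00000160429: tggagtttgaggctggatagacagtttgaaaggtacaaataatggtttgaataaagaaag
The second also shares 29 bases with the third, at their ends. The 2 probes with the shared stretch in capitals had the smaller differences, and the probe that lacks it the larger one. The tables list other transcripts that can bind each of the 3. Without replicate 1 the differences were 1.1, 1.24 and 4.03 in the same order, so that the gap between these probes does not rest on that array. The lowered probe, ENSMUST00000159706, detected on 2 of 3 GC-2 arrays, read -1.68, -2.66 and -2.50 in GC-2 and 1.34, 1.39 and 1.38 in testis, a difference of -3.65 (SE 0.30, limma adjusted p 2.05e-05).

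**Figure D4:**
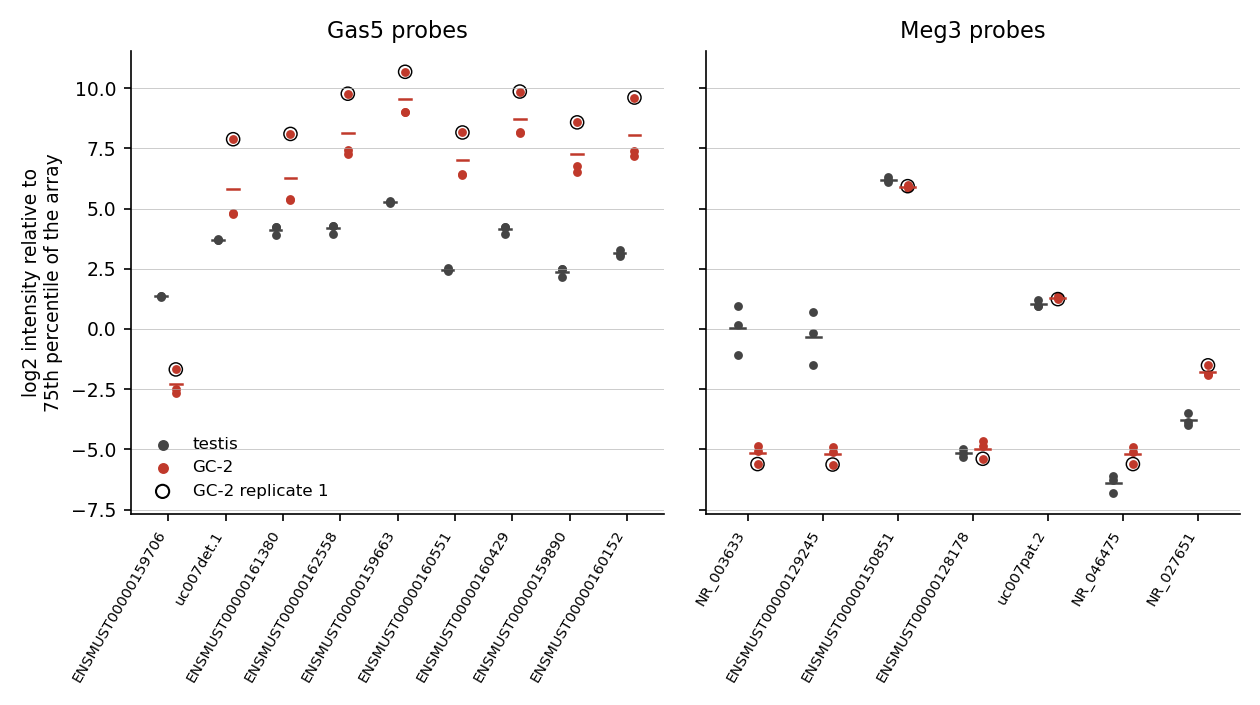
Levels (log2 intensity relative to the 75th percentile of the array, y axis) of the 9 Gas5 probes (left) and the 7 Meg3 probes (right) on the 3 testis and the 3 GC-2 arrays, with lines at the means. Circles mark GC-2 replicate 1, which is the highest GC-2 array on every Gas5 probe. On 8 of the Gas5 probes GC-2 lies above testis, and among the Meg3 probes GC-2 lies far below testis on 2.

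Meg3, a maternally expressed imprinted lncRNA of chromosome 12, also differed by probe. Of 18 probes for imprinted lncRNAs 2 were called lower, both of Meg3 and neither under all 5, 1 higher and 15 not, with a median of 0.86 and 7 detected on no array of either group. Of all probes 12.4% were called lower and 16.6% higher. The imprinted lncRNA called higher, Airn, was on no GC-2 array and so gives no level. Meg3 had 7 probes, of which 2 were detected on no array of either group. The probe of ENSMUST00000129245 read -1.49, 0.69 and -0.16 in testis and was on no GC-2 array, so that testis was at least 6.36-fold higher. That of NR_003633 read -1.08, 0.97 and 0.18 and gave at least 8.07-fold. In F9 both were high, at 4.67 and 4.83. In contrast, ENSMUST00000150851 read 5.93, 5.97 and 5.84 in GC-2 and 6.31, 6.19 and 6.11 in testis, a difference of -0.29, and NR_027651 differed by 2.01. The probes of these 4 lie along the locus from its 5′ side to its 3′ side, on the plus strand and in the order given here with their windows on GRCm38, and are shown to place the difference.
Meg3 ENSMUST00000129245, chr12:109545123-109545319: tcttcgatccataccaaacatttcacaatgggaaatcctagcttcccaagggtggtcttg
Meg3 NR_003633, chr12:109545757-109546390: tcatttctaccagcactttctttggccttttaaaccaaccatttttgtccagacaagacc
Meg3 ENSMUST00000150851, chr12:109549419-109549478: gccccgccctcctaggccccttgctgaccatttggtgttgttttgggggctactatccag
Meg3 NR_027651, chr12:109568221-109568410: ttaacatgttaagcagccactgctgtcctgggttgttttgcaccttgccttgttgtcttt
The first pair was detected on no GC-2 array and the second pair on all 3.

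Pseudogenes of ribosomal proteins all had differences above the median of all probes. Of 47 probes, all detected on all 6 arrays, 40 were called higher, none lower and 7 not, with a median of 2.85 and a range from 1.75 (Rpl36-ps10) to 4.28 (Rpl7a-ps9). The median lay 1.50 above that of all probes. Under all 5 scalings and corrections 5 were called, and with quantile normalization 7, so that the count rests on the scaling. Their probes can also bind the mRNA of the parent genes. None was called against GC-1 or F9. The 45S rRNA precursor Rn45s read 11.44, 11.47 and 11.26 in GC-2 and 10.06, 10.07 and 9.82 in testis, a difference of 1.41, like that of all probes. Of 6 mitochondrial transcripts 1 was called higher, also under all 5, AK139402, which read 3.25, 6.0 and 5.88 in GC-2 and -1.19, -0.16 and -0.28 in testis (5.59, SE 0.72). Of all probes 16.6% were called higher. Without GC-2 replicate 1, 3 of the 6 mitochondrial transcripts were called. The nuclear-retained lncRNAs Malat1, on 3 probes, and Neat1 had differences from 1.81 to 1.94 and were not called, and Neat1 read 7.34 on GC-2 replicate 1 and 3.85 and 4.11 on the others.

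Replicate 1 of GC-2 differed from replicates 2 and 3. Among probes detected on all 3 GC-2 arrays, 122 lay more than 8-fold above the mean of the others and 25 more than 8-fold below. The counts were 2 and 18 for replicate 2, 1 and 13 for replicate 3, and for replicate 1 of testis, in its own group, 20 and 32. Over all probes, detected or not, replicate 1 of GC-2 lay more than 8-fold above the others on 328 probes (0.539%) and below on 122 (0.201%). Over all probes the contrast was smaller, with 233 above and 46 below for replicate 2 and 154 and 56 for replicate 3. These are descriptions of single arrays, with no test. The named transcripts farthest above were the lncRNA ENSMUST00000173149 at H2-Bl, of the major histocompatibility complex, which read 3.38, -4.71 and -4.24, AA467197 (2.12, -4.82 and -5.11), a transcript of the histone methyltransferase gene Setdb2 (uc011zmm.1, 5.70, -1.42 and -0.63) and 5930412G12Rik (1.89, -4.33 and -3.12). Apart from the Setdb2 transcript, each of these was detected on replicate 1 and on no other GC-2 array. Farthest below were AK148154 (-5.68, -1.46 and -1.21), 1700009N14Rik (-1.65, 2.26 and 2.10), 9930013L23Rik (-4.16, -0.83 and -0.71) and AK034378 (-5.49, -0.23 and -4.05), the last detected on replicate 2 alone. Replicate 1 of every group lay on the same slide, and within GC-2 the slide and the sample cannot be told apart.

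**Figure D5:**
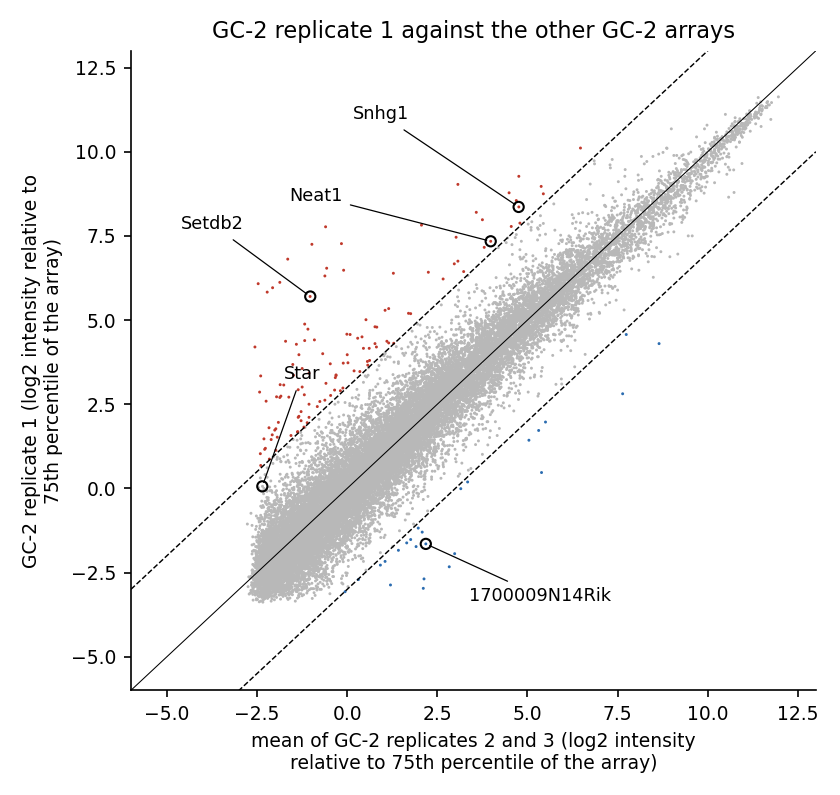
Each point is a probe detected on all 3 GC-2 arrays, with its mean level on replicates 2 and 3 on the x axis and its level on replicate 1 on the y axis, both as log2 intensity relative to the 75th percentile of the array. Dashed lines mark an 8-fold difference, beyond which 122 probes lie above (red) and 25 below (blue), and Star lies within them, 2.41 above the diagonal.

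Most calls against testis were also made without that array. Without GC-2 replicate 1, 16645 of the 17642 calls were made in the same direction, 997 were not made, 1609 were added and none changed direction. Among the named transcripts whose call changed, 5930412G12Rik was called higher with replicate 1 and not without it, where it was detected on no array of either group and has no level. H2-Bl was uncalled with replicate 1 and called lower without it, where it was on no GC-2 array and the fitted difference is no measured fold. AK148154 was uncalled at 1.14 and called higher at 2.59 without it, and the Dscc1 lncRNA was called lower at -2.37.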

How the data were processed

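RNA from 24 samples was hybridised to 1-colour Arraystar mouse lncRNA arrays, and the 6 of GC-2 and testis were analysed. The authors deposited a Feature Extraction file per array with the intensity of 62243 spots, already background-subtracted by the software, and a table of the same intensities (largest relative difference 0.000228). Neither was normalized between arrays. Control spots were left out, and log2 intensity minus the array's 75th percentile was fitted with limma 3.58.1 in R 4.3.3 (lmFit, eBayes, two-sided, Benjamini-Hochberg over 60804 probes). GC-1 and F9 entered a fit of 12 arrays. The fits were tested on simulated data. "At least" folds set the bright group's mean against the dim group's lowest detected signal. Names came from the study's tables, held in part, and RefSeq (GRCm38), which matched 1755 of 3330 symbols and 125 as synonyms; the tables' own folds and p-values were not used. Arrays give no counting depth, and 3 per group limits the precision. The members and gene lists were chosen with earlier results of these data known. By rule the text names Star, list members of largest difference, the 10 lncRNAs and 8 mRNAs of largest difference each way, the 8 lowest testis-list lncRNAs, the 4 farthest each way on GC-2 replicate 1 and genes with both probe kinds. Alternatives were other scalings, normexp (offset 50, on median spot signals), a detection filter, the deposited table, the slide or replicate number as a block, no fold limit and leaving out each array. Python 3.11.15, numpy 2.4.6, pandas 2.3.3 and matplotlib 3.10.9 were used.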

Additional observations from a re-analysis of the deposited data

Results flagged for a closer look

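For 7 named transcripts GC-2 was called lower than testis while F9 was called higher than testis, so that the lines moved in opposite directions from the same testis arrays. The difference GC-2 minus F9 was tested in the fit of 12 arrays with limma. It was -11.62 for Trim71, -9.40 for Zfp42, -8.91 for Nup62cl, -7.47 for Zscan10 and -6.92 for Tex19.1, all mRNAs, and -9.88 and -10.00 for the Meg3 probes ENSMUST00000129245 and NR_003633 (limma adjusted p from 2.45e-10 to 4.18e-08). None of the 7 was detected on a GC-2 array, so that these differences, and those of GC-2 from testis, are fitted values and not measured folds. The mRNAs among them were named because a line expressed them, and the choice of members therefore favours such a pattern.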

How the results depend on the processing

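Limits. A probe without a signal above background has no level, and the scaling sets where an unchanged transcript lies. The 3 arrays per group limit the precision, and most probes could not be named. Of 2297 values of named transcripts under alternatives, those that changed sign were all of uncalled transcripts.

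Called lower and higher numbered 7548 and 10094. They were 3797 and 4131 with normexp, 10750 and 3890 with the percentile over detected probes, 7149 and 11640 with the median, 8071 and 8091 with quantile normalization, 12155 and 37039 with no fold limit, and 3715 and 2660 under all 5 scalings and corrections together, a setting chosen after seeing the data. Leaving out 1 array gave 7437 to 7687 and 9977 to 10817. The 965 probes on all GC-2 arrays and no testis array were 487 with the flag for a positive and significant signal and 3979 with a common threshold.

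For the gene groups, counts are called lower, or called higher where said. With normexp the germ line group had 7 and pluripotency 3, imprinted lncRNAs 0 lower and 0 higher, and higher were 3 spindle genes, 1 of chromatin, 1 probe of replication and 3 lncRNAs of cell cycle genes. With the percentile over detected probes, 5 spindle genes, 2 probes of replication and 1 lncRNA of the cell cycle genes were lower, and higher were 1 spindle gene, 0 of chromatin, 0 of replication, 2 lncRNAs of cell cycle genes, 0 imprinted and 5 ribosomal protein pseudogenes. With quantile normalization 7 of these pseudogenes were higher. With the median 1 germ line probe was higher, and with detected probes alone 0 imprinted. With the slide as a block, higher were 1 of chromatin, 5 of replication, 4 lncRNAs of cell cycle genes and 2 nuclear-retained. On the shared slide, with no test, 1 spindle gene was lower, and higher were 1 of chromatin, 5 of replication, 1 germ line and 3 nuclear-retained. With no fold limit, 5 spindle, 2 chromatin, 3 replication and 1 lncRNA of cell cycle genes were lower, and 14, 5, 10 and 17 higher, with 5 kinases and regulators, 1 germ line, 1 pluripotency, 8 imprinted, 3 nuclear-retained and 5 mitochondrial higher. Leaving out 1 array moved the lncRNAs of cell cycle genes called lower between 0 and 1, the nuclear-retained called higher between 0 and 1 and the mitochondrial called higher between 1 and 3.

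Star was called in every fit, from -5.29 to -2.91, and on the shared slide it was -2.13. Of 107 called named transcripts 77 were called in every alternative fit, and 24 were not called with normexp and 18 not with the percentile over detected probes. The differences that changed sign were, with the percentile over detected probes, -0.02 (AK148154), -0.05 and -0.34 (Diap3 mRNA and lncRNA), -0.98 and -0.90 (Meg3 ENSMUST00000128178 and uc007pat.2), -0.46 and -0.11 (Mum1l1 mRNA and lncRNA), -0.93 and -0.75 (Pbk mRNA and lncRNA) and -0.20 (Setdb2). With quantile normalization they were -0.22 (Meg3 NR_046475), -0.19 (Pbk mRNA) and -0.12 (Rn45s). With normexp they were 0.11 (Cep110 lncRNA), 0.21 (Ppp1cc), 0.48 and 0.40 (Zfp951 lncRNA and mRNA). With 1 array left out, the differences ranged from -0.06 to 0.41 (Pbk mRNA), from -0.66 to 0.33 (Ppp1cc) and from -1.28 to 2.28 (Setdb2), and the changed signs were those without GC-2 replicate 1. The cause of these changes was not tested.

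With the replicate number as a block, 7541 probes were called lower and 10036 higher, and no call of a named transcript was lost. The deviations of same-numbered arrays from their group means had correlations of 0.126, 0.111 and 0.0151. With 3 arrays per group these cannot decide whether the numbers pair the samples. The labels give no pairing of the line with the mice, while replicate 1 of both groups shared a slide.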
